A study of Mus musculus with 2 samples.

Results

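Keratin genes of mouse embryonic stem cells (mESCs) were compared between cells grown with and without folate, the one-carbon vitamin. The genes are Krt7, Krt8, Krt10, Krt17, Krt18, Krt19 and Krt42, which are 7 of the 28839 genes in the deposited expression table and were taken from it by symbol. They were chosen by their measured values in these same libraries, so their differences are given as a description with no test. RNA of the Sv129 mESC line was sequenced as 1 library from cells in control medium with folate at 4 mg/L (FA4) and 1 library from cells in folate-deficient medium at 0 mg/L (FA0). Both media were based on DMEM with fetal bovine serum, and the cells of both groups were split from the same thawed line and kept with leukemia inhibitory factor. The time spent in each medium is not stated in these sources. With 1 library per condition, no difference below has a replicate check, and a difference between the media cannot be told apart from a difference between single cultures.

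Keratins are the intermediate filament proteins of epithelial cells. Each filament is built from an acidic type I keratin joined to a basic type II keratin, so that the level of one type limits how much of the other can be used. Krt8 with Krt18 or Krt19 forms the filaments of simple, single-layered epithelia and is the first keratin network of the mouse embryo, where it appears in the outer layer that becomes trophectoderm. Stratified epidermis and its appendages use other members, among them Krt10 in cells that leave the basal layer, Krt17 in hair, nail and wounded skin, and Krt42 in the mouse nail.

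The name simple-epithelial keratins covers part of these genes. Krt8, Krt18 and Krt19 belong to simple epithelia and were all measured well above zero, and Krt7, the type II keratin of ducts and bladder lining, was near zero in both libraries. Krt10, Krt17 and Krt42 are epidermal or nail keratins by their known roles. Values are FPKM, fragments scaled to exon length and to the library total, as deposited. Intervals at 95% come from whole reads recovered from the FPKM, and they cover counting error only. A change is the difference of log2(FPKM + 1), FA0 minus FA4, and "at least 2-fold" refers to a change of at least 1 in size on that scale. A gene counted as expressed when its FPKM reached 1 in either library, which 14345 genes and 6 of the 7 keratins did.

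Krt8 and Krt18 lie beside each other on chromosome 15, pointing away from each other with 23697 bases between them. Krt18 was 2.64-fold lower in FA0, and Krt8 was only 1.22-fold higher (1.02 to 1.47). Krt17 and Krt42 lie beside each other on chromosome 11, and both were higher in FA0. The stretches around the annotated start (from 250 bases before it to 50 bases after it) are shown for Krt8, Krt18 and Krt42, as the genes with the largest or the most opposed values that have one in the RefSeq table. The build is GRCm38.p6, and RefSeq's start can differ from that of the annotation behind the expression table. Krt8 is at chr15:102004293-102004592 on the minus strand, Krt18 at chr15:102027966-102028265 on the plus strand and Krt42 at chr11:100269902-100270201 on the minus strand. Capitals mark TATAAA, the TATA box letters, and GCCNNNGGC, the letters bound by AP-2 factors, each searched on both strands.
Krt8: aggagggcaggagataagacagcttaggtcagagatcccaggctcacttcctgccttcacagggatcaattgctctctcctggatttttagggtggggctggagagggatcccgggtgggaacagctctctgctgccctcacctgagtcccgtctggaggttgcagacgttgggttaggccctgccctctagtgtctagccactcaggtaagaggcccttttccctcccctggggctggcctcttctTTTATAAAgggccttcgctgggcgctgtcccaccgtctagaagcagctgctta
Krt18: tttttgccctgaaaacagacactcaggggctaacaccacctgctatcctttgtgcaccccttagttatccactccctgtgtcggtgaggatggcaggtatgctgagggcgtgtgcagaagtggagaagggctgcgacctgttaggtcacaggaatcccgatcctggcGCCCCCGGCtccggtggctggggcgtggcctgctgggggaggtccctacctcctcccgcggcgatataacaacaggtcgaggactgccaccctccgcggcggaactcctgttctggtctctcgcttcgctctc
Krt42: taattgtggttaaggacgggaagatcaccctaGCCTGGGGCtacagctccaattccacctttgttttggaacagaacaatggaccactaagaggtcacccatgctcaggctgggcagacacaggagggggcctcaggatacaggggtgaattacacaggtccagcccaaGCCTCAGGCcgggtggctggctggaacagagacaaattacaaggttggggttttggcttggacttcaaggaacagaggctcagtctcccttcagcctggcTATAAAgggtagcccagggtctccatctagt
Such stretches were found for 5 of the 7 genes, the other two being Krt17 and Krt19. The Krt18 stretch held 17 CpG and 61.3% G and C, the Krt8 stretch 6 CpG and 58% and the Krt42 stretch 2 CpG and 54%. Over all 32851 promoters in the table the median was 7 CpG. The Krt7 stretch held 21 CpG and the Krt10 stretch 2. TATAAA was found in Krt8, Krt10 and Krt42 and in 13.6% of all promoters, with its first base at -1 in Krt8, at -26 in Krt10 and at 20 in Krt42, counted from the RefSeq start. In Krt8 the capitals also hold its overlapping match on the other strand. GCCNNNGGC was found in Krt7, Krt18 and Krt42 and in 16.6% of all promoters. CCAAT was found in Krt10 and Krt42 (37.4% of all promoters) and GGGCGG, the GC box, in Krt7 (35.7%). TGANTCA, the letters bound by AP-1, occurred in 7.81% of all promoters and GGAATG, bound by TEAD factors, in 14.7%, and neither set of letters was found in these 5 windows. A match is a stretch of letters and was not measured as a bound site.

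Krt8, the type II keratin of simple epithelia (ENSMUSG00000049382, chromosome 15 from 101996698 to 102004482), stood at 5.97 FPKM in FA4 and 7.30 FPKM in FA0. These were 220 and 253 reads, and the ratio of FA0 to FA4 was 1.22 (95% counting interval 1.02 to 1.47). Krt8 thus differed by much less than 2-fold between the media, and it was the most abundant type II keratin in each. Krt7, the other type II gene of the set (ENSMUSG00000023039, chromosome 15 from 101411043 to 101430313), stood at 0.189 FPKM in FA4 and 0.0401 FPKM in FA0. It rested on 25 and 5 reads and was 4.71-fold lower in FA0 (1.77 to 15.7). Krt7 did not reach the minimum FPKM of 1 and enters no count of changed genes.

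Krt18, the usual type I partner of Krt8 (ENSMUSG00000023043, chromosome 15 from 102028180 to 102032027), stood at 10.1 FPKM in FA4 and 3.81 FPKM in FA0. The reads were 272 and 97, which gave a level 2.64-fold lower in FA0 (2.09 to 3.36) and a change of -1.20. Krt19, the shortest keratin protein and the type I keratin that can stand in for Krt18 as a partner of Krt8 (ENSMUSG00000020911, chromosome 11 from 100140810 to 100148665), had the opposite difference. Its FPKM was 3.53 in FA4 and 12.6 in FA0, from 123 and 414 reads. Krt19 was 3.58-fold higher in FA0 (2.92 to 4.41), with a change of 1.59, the largest of the 7 genes. In a bulk sample, fewer cells of a type and less RNA per cell cannot be told apart, and this holds for every level given here.

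Krt18 and Krt19 thus exchanged places. The ratio of Krt19 FPKM to Krt18 FPKM was 0.350 in FA4 and 3.31 in FA0, and it was 9.44 times as large in FA0 (6.86 to 13.0, an interval of the odds ratio of the 4 read counts). The ratio of Krt18 FPKM to Krt8 FPKM was 1.68 in FA4 and 0.522 in FA0. Summed with the values already known, Krt18 and Krt19 together came to 13.6 FPKM in FA4 and 16.4 FPKM in FA0, and their sum stood at 2.27 times the level of Krt8 in FA4 and at 2.25 times in FA0. Of this summed FPKM, most was thus Krt18 in the FA4 library and Krt19 in the FA0 library, at a like ratio to Krt8. Per library total, the reads of Krt18 and Krt19 together were 1.37-fold higher in FA0 (1.20 to 1.57). With 1 library each, this is not shown to follow from folate, and the level of Krt8 is less certain, as given below.

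**Figure D1:**
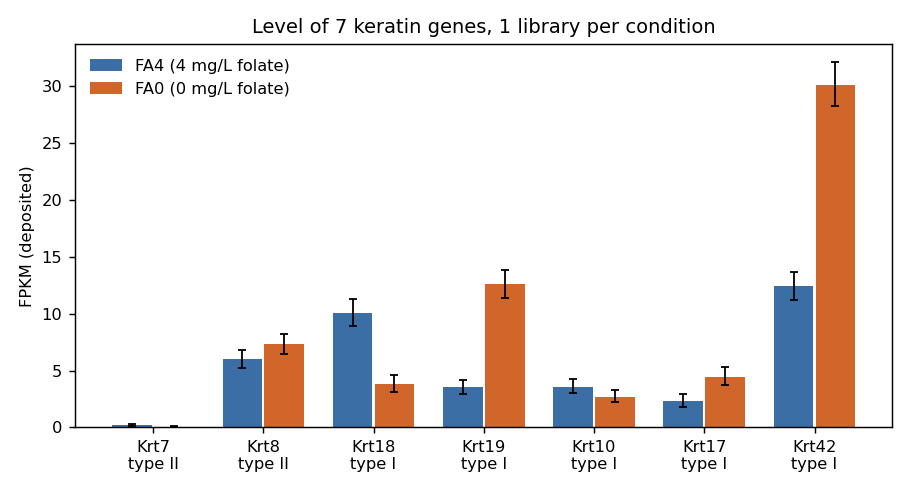
Level in FPKM (vertical axis) of each of the 7 keratins in the FA4 library (blue) and the FA0 library (orange), with exact Poisson 95% intervals from the recovered reads as error bars. Krt18 has the taller bar in FA4 (10.1 against 3.81), while Krt19 (3.53 against 12.6) and Krt42 (12.4 against 30.1) have the taller bar in FA0.

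Krt42, a type I keratin of the mouse nail whose human counterpart is a pseudogene (ENSMUSG00000053654, chromosome 11 from 100262882 to 100269871), was the most abundant keratin in both libraries. Its FPKM was 12.4 in FA4 and 30.1 in FA0, from 412 and 941 reads. Krt42 was 2.43-fold higher in FA0 (2.16 to 2.73), with a change of 1.21, and by FPKM it ranked 4693 among the expressed genes in FA4 and 2064 in FA0. Krt17, its neighbour and a type I keratin of hair follicle, nail and wounded skin (ENSMUSG00000035557, chromosome 11 from 100256217 to 100261029), stood at 2.30 FPKM in FA4 and 4.44 FPKM in FA0. From 67 and 122 reads, Krt17 was 1.93-fold higher in FA0 (1.42 to 2.65), with a change of 0.72 that is short of 2-fold. Both genes read in the same direction with 1852 bases between them. Krt42 exceeded Krt17 by 5.41 times in FA4 and by 6.78 times in FA0, and the interval of this 1.25-fold difference, 0.896 to 1.74, holds 1.

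Krt17 and Krt42 are also the closest in sequence. In a global alignment their coding sequences were 76.4% identical, against 68.1% for Krt17 and Krt19, 65.8% for Krt7 and Krt8, 57.2% for Krt18 and Krt19 and 51.2% for Krt8 and Krt18. The longest stretch without a mismatch between Krt17 and Krt42 was 53 bases, shown here because a short read from it could come from either gene. It is at coding bases 535 to 587 of Krt17 and 565 to 617 of Krt42, counted from the A of the start codon, in the GENCODE M21 transcripts on mm10.
Krt17 and Krt42: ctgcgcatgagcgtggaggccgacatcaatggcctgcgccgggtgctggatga
Of all 50-base stretches in the exons, 3.99% of Krt17 and 0.234% of Krt42 also occur in another annotated gene. For Krt17 most of them are in Krt14, at 3.66%, a gene with 6 reads in FA4 and 1 in FA0. The shares were 0% for Krt19, 0.720% for Krt18, 0.916% for Krt7 and 2.37% for Krt10. For Krt8 the share was 29.7%, of which the processed pseudogene Krt8-ps holds 26.9%. Krt8-ps itself had 4 reads in FA4 and 1 in FA0. How reads that match several places were counted is not stated in the sources used, so the level of Krt8 is less certain than that of the other expressed members.

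Krt10, the type I keratin of the epidermal layers above the basal layer (ENSMUSG00000019761, chromosome 11 from 99385254 to 99389364), stood at 3.60 FPKM in FA4 and 2.70 FPKM in FA0. The reads were 143 and 101, and Krt10 was 1.33-fold lower in FA0 (1.03 to 1.74). It shares 146 exon bases with the antisense gene Gm11940, which had 1 read in FA4 and 11 in FA0. Whether the counting used strand is not given, so reads of the overlap cannot be assigned to one of these genes. The 146 bases are a small part of the 2114 exon bases of Krt10. Krt7 and Krt8 overlap antisense or non-coding genes by 77 and 101 exon bases, and those genes have no listed value in these libraries.

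The order of the levels differed between the libraries. In FA4 it was Krt42, Krt18, Krt8, Krt10, Krt19, Krt17 and Krt7. The intervals of Krt42 (11.2 to 13.7) and Krt18 (8.90 to 11.3) overlapped there, as did those of Krt10 (3.03 to 4.24) and Krt19 (2.93 to 4.21). In FA0 the order was Krt42, Krt19, Krt8, Krt17, Krt18, Krt10 and Krt7. There the interval of Krt18 (3.09 to 4.65) overlapped with that of Krt17 (3.69 to 5.30) and that of Krt10 (2.20 to 3.28). Krt42 was first and Krt7 last in both, and Krt8 was the third in both. The merged exons were 1437 bases long in Krt18, 1764 in Krt42, 1855 in Krt19 and 1958 in Krt8.

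Of the 6 expressed keratins, Krt19 and Krt42 were at least 2-fold higher in FA0, which 2.99% of the 14345 expressed genes were. Krt18 was at least 2-fold lower, which 1.32% of expressed genes were. Among the 6993 genes with a mean FPKM inside the range of these 6 keratins, from 3.15 to 21.3, the shares were 2.52% higher and 0.887% lower. The members were chosen on this same comparison, so nothing is read from 3 of 6 against those shares. The median change of the 6 was 0.49 and that of all expressed genes 0.05. The counting interval of the ratio lay above 1 for Krt8, Krt17, Krt19 and Krt42, and it lay below 1 for Krt10 and Krt18. At this depth the same was true of 34.4% of expressed genes above 1 and of 25.9% below 1, so an interval that leaves out 1 is common. Krt17, with a change of 0.72, is the nearest of the 6 below the 2-fold limit, and Krt18, at -1.20, and Krt42, at 1.21, are the nearest past it.

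**Figure D2:**
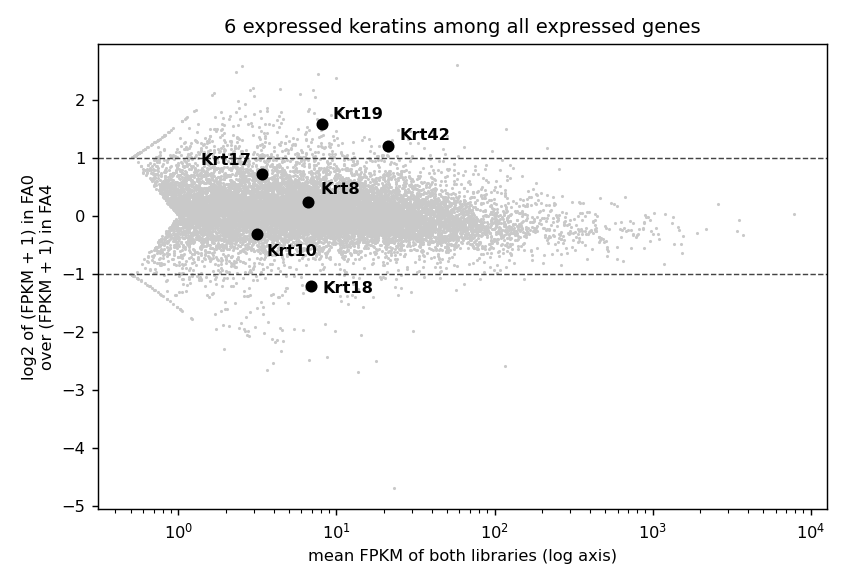
Change on the log2(FPKM + 1) scale, FA0 minus FA4 (vertical axis), against mean FPKM of both libraries on a log axis, with each expressed gene as a grey point and the 6 expressed keratins in black. The dashed lines mark 2-fold in each direction, and Krt19 (1.59), Krt42 (1.21) and Krt18 (-1.20) lie outside them.

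Counted by filament type, type I transcripts exceeded type II transcripts in both libraries. The summed FPKM of the 5 type I members was 31.9 in FA4 and 53.7 in FA0, from 1017 and 1675 reads. That of the 2 type II members was 6.16 and 7.34, from 245 and 258 reads. Per library total, the type I reads were 1.75-fold higher in FA0 (1.62 to 1.89), while the ratio of the type II reads was 1.12 with an interval of 0.936 to 1.34. Type I FPKM was 5.18 times type II FPKM in FA4 and 7.32 times in FA0. The makeup of the type I sum differed as well. Krt42 gave 38.9% of it in FA4 and 56.1% in FA0, Krt18 gave 31.5% and 7.10%, and Krt19 gave 11.1% and 23.5%. Krt10 gave 11.3% and 5.03%, and Krt17 gave 7.20% and 8.27%. The Krt42 level alone was 2.08 times that of Krt8 in FA4 and 4.13 times in FA0. These are transcript levels, and no keratin protein was measured in the files.

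**Figure D3:**
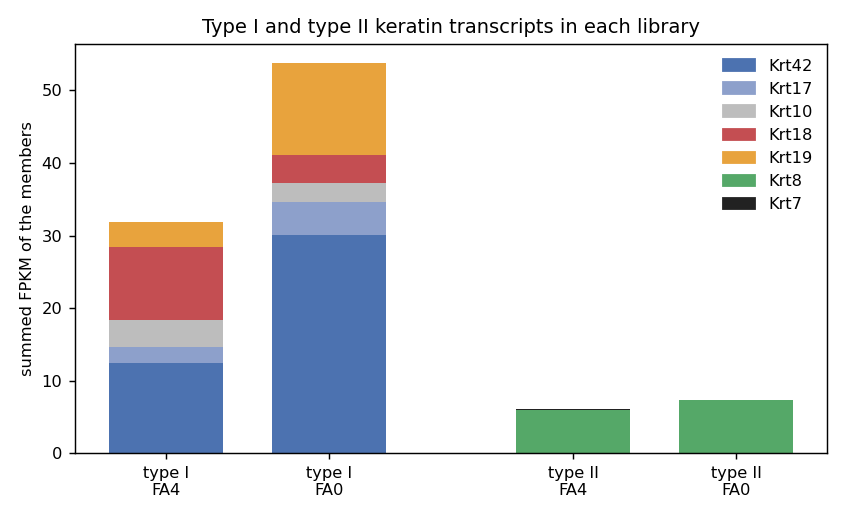
Summed FPKM (vertical axis, from 0) of the type I and the type II members in each library, stacked by gene. The type I bar is 31.9 high in FA4 and 53.7 in FA0, most of the latter from Krt42, and the type II bars, nearly all Krt8, are 6.16 and 7.34 high.

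The rest of the keratin family was close to silent. The table holds 26 further keratin genes and the pseudogene Krt8-ps, and of the 26 only Krt79 reached an FPKM of 1. Krt79, a type II keratin of the hair canal and sebaceous gland duct, stood at 1.07 FPKM in FA4 and 0.285 FPKM in FA0. It was 3.77-fold lower in FA0 (2.39 to 6.16), from 96 and 24 reads. The other 25 had fewer than 30 reads in each library, and 19 of the 26 had 10 or fewer in both. All 26 together had 212 reads in FA4 and 134 in FA0, against 1262 and 1933 for the 7 members. The counting interval lay above 1 for 1 of the 26 and below 1 for 3. These are Krt13, with 2 reads in FA4 and 11 in FA0, and Krt79, Krt20 and Krt23, named after their values were seen. Krt20, the type I keratin of gut lining, had 13 reads in FA4 and 1 in FA0, and Krt23 had 18 and 4.

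Of the basal and suprabasal keratins of the epidermis, Krt1, Krt5 and Krt14 were among the genes of few reads, unlike Krt10 (143 and 101). Krt1, Krt5 and Krt14 were picked after their values were seen. Krt1, the type II keratin that pairs with Krt10, had 6 reads in FA4 and 1 in FA0. Krt5, the type II keratin of basal cells, was listed at 0 in FA4 and had 1 read in FA0. Krt14, the type I keratin of basal cells, had 6 reads and 1. In FA0, Krt8 was the only type II keratin with an FPKM of at least 1, beside 5 type I keratins, and in FA4 only Krt79 joined it. Of the 5 listed keratins of simple epithelia, Krt7, Krt8, Krt18, Krt19 and Krt20, 3 were expressed, 1 passed 2-fold upward and 1 downward, with a median change of 0.25.

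**Figure D4:**
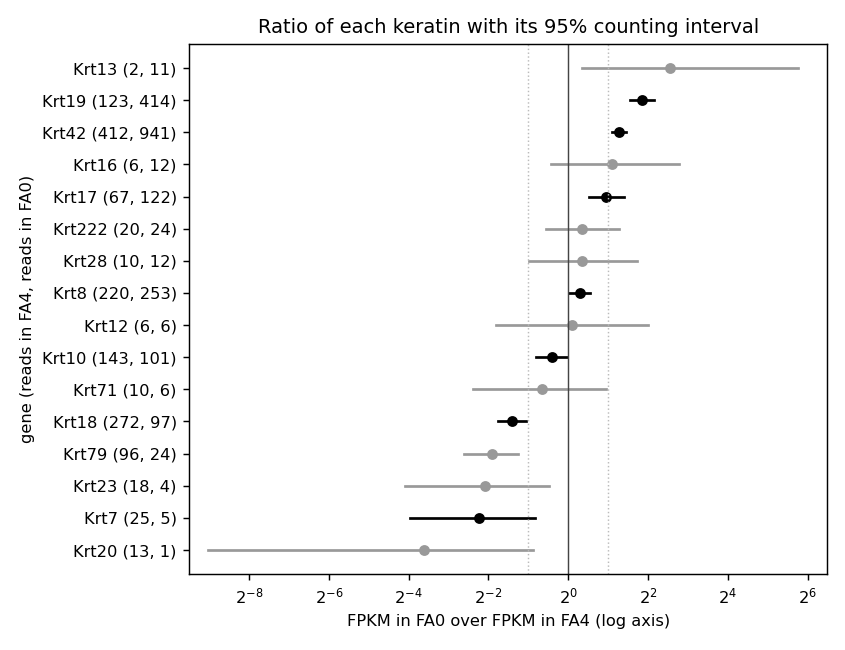
Ratio of FPKM in FA0 to FPKM in FA4 (horizontal log axis) with its 95% counting interval, for the 7 members in black and other keratins in grey, with the reads in FA4 and FA0 beside each name. Other keratins with no reads in FA4 or in FA0, or with very few over both, are not shown. Intervals are narrow for Krt42 (2.16 to 2.73) and wide for genes of few reads such as Krt20 (13 and 1 reads).

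Position in the cluster did not go with one direction. On chromosome 11 the table holds 17 keratin genes, all type I, and on chromosome 15 it holds 16, the type II genes with Krt18 at their edge. Krt19 lies between Krt15, listed at 0 in FA4 and with 3 reads in FA0, and Krt9, listed at 0 in FA4 and with 1 read in FA0. Krt17 lies between Krt42 and Krt16, and Krt16, a keratin of wounded skin, had 6 reads in FA4 and 12 in FA0. Beyond Krt42, the antisense gene Gm14206 had 7 and 3 reads. Krt10 lies between Krt28, with 10 and 12 reads, and Krt12, the cornea keratin, with 6 in each. On chromosome 15, Krt87 beside Krt7 had 1 read in each library, and Krt78 beside Krt8 had 1 and 3. Eif4b, a translation initiation factor gene past Krt18 and outside the keratins, stood at 100.6 FPKM in FA4 and 101.1 FPKM in FA0. The adjacent expressed keratins were thus Krt17 with Krt42, both higher in FA0, and Krt8 with Krt18. Of the latter pair, Krt18 was 2.64-fold lower in FA0, and Krt8 was only 1.22-fold higher (1.02 to 1.47).

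**Figure D5:**
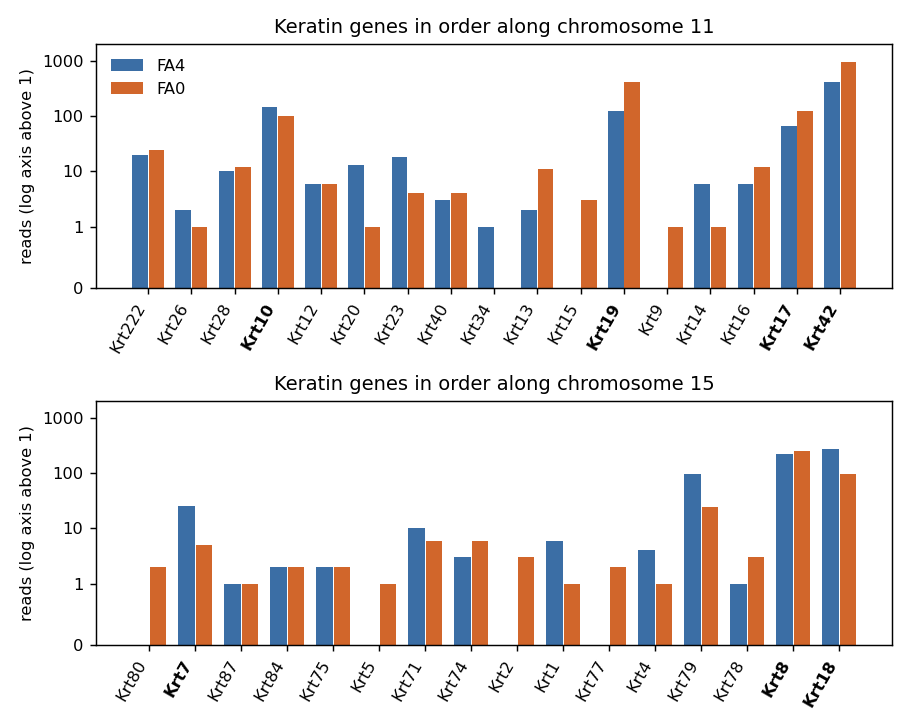
Reads of each keratin gene (vertical axis, log above 1 and linear below it) in FA4 (blue) and FA0 (orange), in their order along chromosome 11 (upper panel) and chromosome 15 (lower panel), with the 7 members in bold. On chromosome 11 the bars of Krt10, Krt19, Krt17 and Krt42 are taller than those of every other keratin shown, which have at most 24 reads, and on chromosome 15 Krt8 and Krt18 have the tallest bars.

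Of 16 other intermediate filament genes listed, 11 were expressed, with a median change of 0.44, and none passed 2-fold on the scale with the pseudocount in either direction. Vim, which encodes vimentin, the filament of mesenchymal cells, stood at 15.3 FPKM in FA4 and 26.2 FPKM in FA0, 1.71-fold higher (1.60 to 1.83). Nefl, a neurofilament subunit, had 1.27 and 2.61, and Synm, which encodes synemin, had 0.777 and 1.62. Lmnb2, a nuclear lamin, had 21.8 and 31.4. Other expressed genes of the list were lower in FA0. Nefh had 13.8 and 10.5, Des 5.85 and 4.77, Ina 4.15 and 3.42 and Prph 2.85 and 2.32. The rest were higher, with Lmnb1 at 137 and 186, Lmna at 7.32 and 10.5 and Nes at 1.02 and 1.34. The median of the 11 lay above the 0.05 of all expressed genes, and like the keratin median it has no test.

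Desmosomes anchor keratin filaments at cell contacts, and plakin cytolinkers tie them to other filaments and to hemidesmosomes. Of 17 such genes, 10 were expressed, with a median change of 0.19. Of these, 2 were at least 2-fold higher in FA0 and none as much lower, against 2.99% and 1.32% of all expressed genes. The list was chosen with earlier results known, so nothing is read from 2 of 10 against that share. Dst, which encodes dystonin, a plakin of hemidesmosomes and the cytoskeleton, stood at 4.76 FPKM in FA4 and 12.1 FPKM in FA0, 2.54-fold higher (2.45 to 2.64). Plec, which encodes plectin, had 2.50 and 6.02, 2.41-fold higher (2.22 to 2.61). Jup, the plakoglobin gene, had 16.3 and 31.3 and a change of 0.90. Macf1, a plakin that links actin and microtubules, had 9.47 and 13.9. Dsp, which encodes desmoplakin, the plakin that ties keratins to desmosomes, had 1.99 in FA4 and 1.31 in FA0. Dsp was not among the 4 largest changes and was named after its values were seen. The remaining expressed genes of the list had smaller changes, 0.32 for Pkp4, 0.05 for Pkp2 and 0.02 for Perp. For Dsg2 the change was -0.06 and for Pkp3 it was -0.15.

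Of 11 genes listed as keratin-binding or keratinocyte-associated proteins, 10 were expressed and none passed 2-fold, with a median change of 0.12. Krtcap2, named for keratinocytes but known as a subunit of the oligosaccharyltransferase complex, stood at 54.4 FPKM in FA4 and 29.2 FPKM in FA0. Pnn, pinin, a protein of splicing speckles and desmosomes, had 30.5 and 43.7. Krtcap3 had 2.90 and 3.88, and Tchp, which encodes trichoplein, a keratin-binding protein, had 3.93 and 5.00. Of 17 transcription factors and splicing regulators of epithelia, 13 were expressed, with a median change of -0.09. None passed 2-fold on the scale with the pseudocount. Esrp1, an epithelial splicing regulator, had 3.31 and 1.94, and Hnf4a, a factor of visceral endoderm and liver, had 0.771 and 1.56. Cebpa had 1.07 and 0.471, which is 2.27-fold lower in FPKM (1.36 to 3.92). Klf4, which these stem cells and epidermis share, had 151 and 107.6.

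The labelled cell type held in both libraries. All 15 embryonic stem cell markers were expressed, with a median change of -0.17 and none past 2-fold. Nanog stood at 547.7 FPKM in FA4 and 418 FPKM in FA0, Pou5f1 had 443 and 369.5, Zfp42 had 824 and 480.3, and Tfcp2l1 had 40.2 and 70.5. Pou5f1, and below Cdx2, Elf5, Trp63 and Col3a1, are given as defining markers of their cell types and not for the size of their change, and they were picked after their values were seen. Markers of the cell types that use these keratins in the embryo were set beside the keratin values. Of the 13 trophectoderm markers in the table, 6 were expressed, and none passed 2-fold on the scale with the pseudocount. Their median change was -0.08, and the summed FPKM of the 13 was 37.9 in FA4 and 39.0 in FA0. The trophoblast regulators Cdx2 (8 and 2 reads) and Elf5 (1 and 2 reads) were near 0, while others of the list were expressed. Tfap2c, the largest part of the sum, stood at 16.3 and 15.6 FPKM. Tead4 had 4.94 and 9.92, Esx1 6.16 and 3.56, Ascl2 4.88 and 3.55, Eomes 1.95 and 3.21 and Gata3 1.34 and 1.19.

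Of 15 primitive endoderm markers, 8 were expressed, with a median change of -0.17 and a summed FPKM of 173 and 201.5. On the scale with the pseudocount 1 passed 2-fold upward and 1 downward in FA0, against 2.99% and 1.32% of all expressed genes. Col4a1, a basement membrane collagen, had 22.3 in FA4 and 46.0 in FA0, with Col4a2 at 11.2 and 22.6 and the laminin gene Lama1 at 12.1 and 24.6. Gata6, which defines primitive endoderm, had 2.58 in FA4 and 0.778 in FA0. The remaining expressed markers were also lower in FA0. Sparc, the largest part of the sum, had 113 and 98.9, Lamb1 6.24 and 5.54, Gata4 1.51 and 1.10 and Dab2 1.46 and 1.06. Below an FPKM of 1, Pdgfra had 159 and 58 reads, Cubn 65 and 44 and Sox17 35 and 17. Foxq1 had 24 and 9 reads, Sox7 16 and 4, Afp 7 and 7 and Ttr 0 and 1. Of the 13 markers of surface ectoderm and epidermis in the table, 4 were expressed, none passed 2-fold, the median change was 0.02 and the summed FPKM was 37.0 and 37.6, of which Perp held 15.7 and 15.9. Trp63, the defining factor of stratified epithelium, had 13 and 15 reads. Of the 11 fibroblast markers in the table, 4 were expressed, none passed 2-fold and the median change was 0.0028. The summed FPKM was 142 and 170.2, of which Fn1 held 131 and 160.4. Thy1 had 4.21 and 4.53, Twist1 3.72 and 2.78 and Pdgfrb 2.02 and 1.86. Col3a1 was listed at 0 in FA4 and had 1 read in FA0. Mesoderm markers (2 of 8 expressed, median change 0.23, summed FPKM 5.65 and 6.57) and neuroectoderm markers (3 of 7 expressed, median change 0.02, summed FPKM 45.8 and 43.4) had no expressed gene past 2-fold on the scale with the pseudocount. Tubb3 held 43.1 and 40.3 of the neuroectoderm sum. The part of other cell types in the keratin levels was not tested.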

How the data were processed

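RNA-seq was performed on Sv129 mESCs with 1 library for FA4 and 1 for FA0. The deposited table holds FPKM of each gene, which the authors calculated from reads on mm10, using TRIzol RNA and NEBNext Ultra libraries. Tools named in the submitters' notes are StringTie 1.3.3b, HISAT2 2.1.0 and DESeq 1.28.0. Read length, strand and the handling of multi-mapped reads are not given in the sources used here. FPKM are scaled to each library.

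Whole reads were recovered from FPKM and the merged exon lengths of GENCODE M21, with scaling totals of 18807174 (FA4) and 17704842 (FA0). Of the values up to 20 reads, 97.9% and 98.1% fell within 0.05 of a whole number. Recovered reads summed to 19529496 and 18362334, above those totals for a reason not tested, and 72 genes had no length. Changes used a pseudocount of 1 and a minimum FPKM of 1. Intervals at 95% are Clopper-Pearson for ratios, exact Poisson for levels and conditional odds ratios for pairs. Fold changes with the pseudocount understate low genes.

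The keratins and all gene lists were chosen with earlier results of these data known. Named genes are the 7 keratins, other keratins with FPKM of at least 1, genes beside a keratin in its cluster, and up to 4 expressed genes of each list with the largest change. Outside this rule, and picked after their values were seen, are Dsp, Pou5f1, Cdx2, Elf5, Trp63, Col3a1, Gm11940, Krt8-ps, Krtap4-13 and the keratins under an FPKM of 1 that lie beside none of the 7. Also outside it are the remaining primitive endoderm markers and the remaining expressed trophectoderm markers. The same holds for the remaining expressed genes of the intermediate filament list and of the desmosome and cytolinker list. No test was possible with 1 library per condition. The alternatives were pseudocounts of 0.1 and 0.5, no minimum or a minimum of 5, rescaling by the median ratio of 7744 genes, and TPM. Promoters are from RefSeq, and coding sequences from GENCODE M21. Python 3.11.15, pandas 2.3.3, numpy 2.4.6, scipy 1.17.1 and biopython 1.88 were used, and the scripts were tested on simulated data.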

Additional observations from a re-analysis of the deposited data

How the results depend on the processing

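The counts over the keratins, 2 past 2-fold upward and 1 past it downward, were the same under all 6 alternatives. Only the rescaling by the median ratio and TPM could have altered them. A smaller pseudocount only enlarges a change, and Krt17, at 1.93-fold in FPKM, could not reach 2-fold by it. Leaving out the minimum adds only Krt7, at -0.19, and the minimum of 5 keeps Krt18, Krt19 and Krt42. Each of the 7 genes kept the sign of its change under the rescaling by the median ratio and in TPM. A pseudocount or a minimum cannot change the sign for a gene, so those settings say nothing about it. The changes ranged from -1.38 to -1.19 for Krt18, from 1.59 to 1.82 for Krt19 and from 1.21 to 1.34 for Krt42. Krt7 moved from -0.19 to -1.04 with a pseudocount of 0.1, which weighs low values more. The counts over all genes moved further. Genes at least 2-fold higher, 429 as reported, were 951 with a pseudocount of 0.1, 659 with 0.5, 883 in TPM and 195 with a minimum FPKM of 5. Genes at least 2-fold lower, 190 as reported, were 409 with a pseudocount of 0.1, 288 in TPM and 80 with the minimum of 5. The ratio of summed type I FPKM was 1.68 as reported and 1.78 in TPM, and that of type II was 1.19 and 1.26. No paired analysis was possible because each condition has 1 library, and for the same reason no replicate could be left out. Depth limits the keratins under 30 reads, whose ratios have intervals of several-fold.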

Other observations

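Genes of keratin-associated proteins, which embed hair keratins in the hair shaft, were also near zero. The table holds 6 of them, with 10 reads in FA4 and 6 in FA0 over all 6, and none reached an FPKM of 1. Krtap4-13, on chromosome 11, had 6 of the reads in FA4 and 1 in FA0.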
